A study of Homo sapiens with 12 samples.

Results

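MV3, an established human melanoma cell line, was kept for 24 h with vesicles from M1 macrophages or from M0 macrophages, and the messenger RNA of the 2 groups of melanoma cells was compared. The members are the 3 libraries labelled M1 EV and the 3 labelled M0 EV, 6 of the 12 libraries of the series, chosen by their labels and not by any measured value. The cells sat in 12-well plates, were moved to RPMI medium with 1% serum depleted of vesicles for 3 h, and received 1e10 particles per well. The vesicles (EVs) came from THP-1, a human monocytic leukaemia line, after differentiation to macrophages and polarization for 48 h towards M0, M1 or M2. The other groups, used below only as a reference, are Ctrl (PBS in place of vesicles) and M2 EV, with 3 libraries each. All 12 libraries thus come from 1 tumour line in the same medium, and both vesicle groups from 1 leukaemia line, so neither stands for primary melanoma or for blood-derived macrophages. The labels name neither the polarizing agents nor what separates the replicates. P-values therefore measure only the spread between these samples, which may be technical.

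Extracellular vesicles are membrane-bound particles that carry proteins, RNA and lipids of the cell that released them and can deliver them to other cells. M0 denotes macrophages without a polarizing stimulus, and M1 the inflammatory state, classically reached with interferon-gamma and bacterial lipopolysaccharide. Many genes of the inflammatory programme are targets of NF-kB, a dimeric transcription factor that IkB proteins hold inactive until upstream kinases mark them for destruction. NF-kB also drives the genes of its own inhibitors.

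Levels are counts per 1000000 counts of the library, TMM-scaled (CPM). Gene totals were 12296341, 10088837 and 11366022 counts in the M0 EV libraries and 9763032, 11048619 and 10201852 in the M1 EV libraries. Of 28087 named genes, 13113 were tested, and they held 99.91% of the counts. Along the first principal component of the 12 libraries, with 43.2% of the variance, the M1 EV libraries lay at 21.95 to 23.82 and the M0 EV libraries at -7.489 to -6.502. Among the M0 EV libraries, replicate 1 stood apart. Its counts differed from those of replicates 2 and 3 by 2.03 and 2.34 times what counting noise gives (chi-square over its degrees of freedom), while replicates 2 and 3 differed by 1.04 times and the M1 EV libraries by 1.59 to 1.69 times. The difference went with transcript length: over 679 genes with transcripts longer than 8000 bases, the median of replicate 1 minus the mean of replicates 2 and 3 was -0.125 on the log2 scale, against 0.0656 over 614 genes with transcripts of up to 1000 bases. M1 EV replicate 1 leaned the same way against its replicates 2 and 3, at -0.0768 and 0.085. Some of the results below are also given without M0 EV replicate 1.

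The labelled cell types were checked against their markers. Of 15 melanoma and melanocyte markers 7 passed the filter on low counts, among them PRAME, CSPG4, MCAM and PAX3. SOX10, S100B, TYR, DCT and TYRP1, defining markers of melanocytes, had no count in the 6 libraries, and MITF, the melanocyte master regulator, had 25 counts over the M0 EV libraries and 28 over the M1 EV libraries. These markers of the labelled cell type were thus at or near 0. MLANA and GPNMB, also melanocytic, passed the filter, and GPNMB averaged 31.1 CPM with M0 EV and 22.2 CPM with M1 EV. Of 44 macrophage and monocyte markers, 26 had no count in the 6 libraries, including CD163, LCP1, S100A8, S100A9, TYROBP and HLA-DRA. Only CD74 and CORO1A passed the filter. The summed level of the list was 13.82 to 15.6 CPM in the M0 EV libraries and 16.31 to 18.73 CPM in the M1 EV libraries, and most of it was CD74, the class II invariant chain (10.4 and 13.3 CPM), which tumour cells can also express. CD74 was called higher (log2 fold change 0.37 ± 0.11, SE, edgeR adjusted p = 0.00788), but DESeq2 gave an adjusted p of 0.0515, and the edgeR fit lacking M1 EV replicate 3 gave 0.0736.

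Between M1 EV and M0 EV, 3321 of the 13113 tested genes (25.3%) were called at an adjusted p below 0.05 (edgeR quasi-likelihood test, Benjamini-Hochberg adjustment). With M1 EV 1638 genes were higher (12.5%) and 1683 lower (12.8%). The counts of called genes in each gene list below stand against these shares. Most differences were small: 1196 of the higher and 1024 of the lower genes changed by less than 1.25-fold, and the median absolute log2 fold change of the called genes was 0.239. The large differences were mostly rises. At least 2-fold changes numbered 77 up (0.587%) and 57 down (0.435%), and at least 4-fold changes 22 up and 2 down. All 22 of the latter rises had M1 EV libraries that did not overlap with the M0 EV libraries, which over all tested genes held for 2391 higher (18.2%) and 2412 lower genes (18.4%). The 2-fold counts include overlapping loci that may share reads, such as IGF2 with INS-IGF2 and STON1 with STON1-GTF2A1L. In RNA of whole cultures, more cells expressing a gene, more RNA per cell and RNA carried in by the vesicles cannot be told apart.

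**Figure D1:**
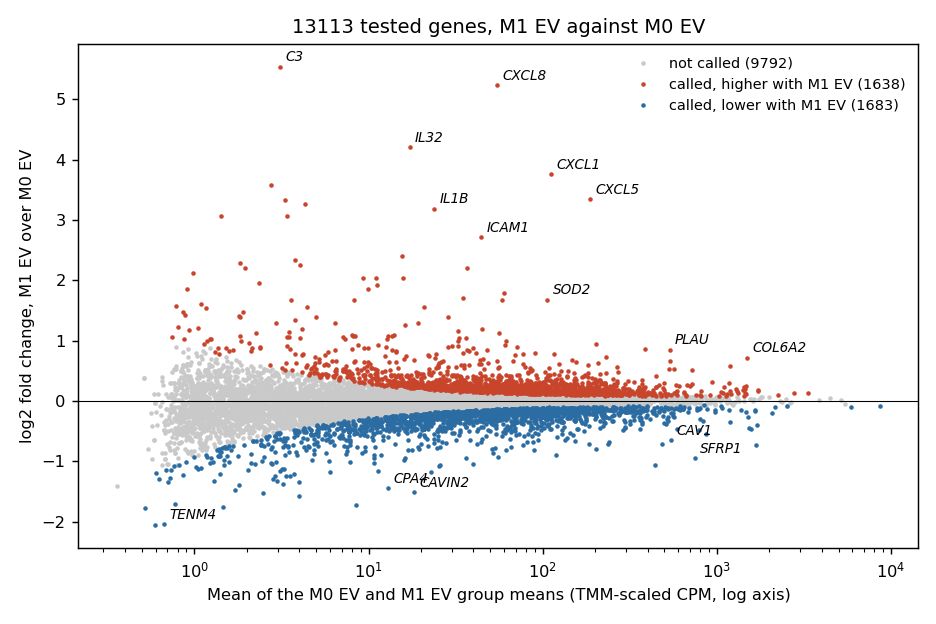
Log2 fold change of M1 EV over M0 EV (y axis) against the mean of both group means in TMM-scaled CPM (x axis, log scale), 1 point per tested gene. Called rises (1638, red) reach 5.54 with C3 and 5.24 with CXCL8, whereas the called falls (1683, blue) reach -2.06.

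Chemokines that attract neutrophils through the receptor CXCR2 made up 5 of the 7 largest rises. CXCL8 measured 2.85, 3.18 and 2.48 CPM in the M0 EV libraries and 104.9, 103.8 and 112 CPM in the M1 EV libraries. This is 37.7-fold more (log2 fold change 5.24 ± 0.080, SE, n = 3 per group, edgeR adjusted p = 2.23e-36). CXCL1 measured 14.6, 15.3 and 15.9 CPM with M0 EV and 221, 203 and 197 CPM with M1 EV, a 13.6-fold difference (3.76 ± 0.058, adjusted p = 2.23e-36). CXCL5 measured 34.7, 34.2 and 31.9 CPM with M0 EV and 349.8, 332 and 347 CPM with M1 EV, a 10.2-fold difference (3.35 ± 0.045, adjusted p = 2.83e-38). In all 3 genes the lowest M1 EV library lay far above the highest M0 EV library. CXCL2 and CXCL3, which started below 1 CPM, averaged 6.03 ± 0.96 and 5.12 ± 0.69 CPM (SD, n = 3) with M1 EV and rose by 3.33 and 3.58 on the log2 scale. Reads shared by the near-identical CXCL1, CXCL2 and CXCL3 may have been split between them, so their separate levels are uncertain.

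Scaled by transcript length, CXCL1 and CXCL5 were the most abundant of the 5 with M1 EV, at 189 ± 12 and 135 ± 4 CPM per kilobase (SD, n = 3), and their libraries did not overlap (179 to 202 against 131 to 138). CXCL8 followed at 62.7 ± 2.6 CPM per kilobase. The CXCL1 value rests on the count and length of a RefSeq transcript of the non-coding class, so its rank over CXCL5 is uncertain. CXCL2 and CXCL3 were lowest, at 4.95 ± 0.79 and 4.76 ± 0.64, and did not differ beyond their spread. With M0 EV, CXCL1 and CXCL5 were at 13.9 ± 0.6 and 13.2 ± 0.6 CPM per kilobase, within their spread of each other, and CXCL8 at 1.66 ± 0.21. Of 28 chemokine genes of the CXC and CC families, 7 were tested, and 71.4% of these were called higher, against 12.5% of all genes. All 5 named above rose, CXCL16 (log2 fold change 0.21, adjusted p = 0.651) and CCL28 (-0.046) did not pass, and none fell, with a median of 3.35 against -0.0064 over all genes. The ligands of CXCR3, CXCL9, CXCL10 and CXCL11, which attract T cells, had no count in the 6 libraries, and CCL2, the main monocyte attractant, had 1 count with M0 EV and 4 with M1 EV.

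The 5 genes that rose lie in 1 cluster on chromosome 4 (GRCh38.p14). In order they are CXCL8 (73740569 to 73743716), CXCL1 (73869393 to 73871308), CXCL5 (73995642 to 73998677), CXCL3 (74036589 to 74038689) and CXCL2 (74097040 to 74099195). Not all genes of the cluster were on: between them, CXCL6 and PPBP had no count with either vesicle, PF4 had 0 and 2 counts, and PF4V1 had 4 and 10. Beyond CXCL2, MTHFD2L rose by 0.43 on the log2 scale. The EGF receptor ligands EPGN and EREG further along rose by 0.82 and 0.92, and AREG (0.53, adjusted p = 0.37) did not pass.

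The 250 bases before the start of these chemokine genes are shown because the 5 moved together and share a stretch of letters there. They were read from the RefSeq promoter table (GRCh38.p14), which held 10485 of the 13113 tested genes, and are written 5′ to 3′ on the strand of the gene: CXCL8 at chr4:73740319-73740568 and CXCL1 at chr4:73869143-73869392 on the plus strand, CXCL2 at chr4:74099196-74099445, CXCL3 at chr4:74038690-74038939 and CXCL5 at chr4:73998678-73998927 on the minus strand. ICAM1, the adhesion receptor described below, is at chr19:10270870-10271119 on the plus strand. Capitals mark matches to the NF-kB consensus, a motif of 10 letters searched on both strands, or to the 9 letters GGAATTTCC on either strand, the longest piece of the stretch shared by CXCL1, CXCL2, CXCL3 and CXCL5 that the CXCL8 promoter also holds.

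CXCL8: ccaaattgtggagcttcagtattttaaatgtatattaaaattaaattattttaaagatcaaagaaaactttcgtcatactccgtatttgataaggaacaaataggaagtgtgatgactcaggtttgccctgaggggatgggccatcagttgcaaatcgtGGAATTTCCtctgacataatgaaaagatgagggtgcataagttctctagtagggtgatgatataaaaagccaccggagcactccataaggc

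CXCL1: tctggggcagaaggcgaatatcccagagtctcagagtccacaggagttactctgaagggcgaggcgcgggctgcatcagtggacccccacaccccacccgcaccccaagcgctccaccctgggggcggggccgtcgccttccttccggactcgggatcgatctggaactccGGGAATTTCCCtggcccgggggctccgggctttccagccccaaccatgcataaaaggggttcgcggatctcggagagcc

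CXCL2: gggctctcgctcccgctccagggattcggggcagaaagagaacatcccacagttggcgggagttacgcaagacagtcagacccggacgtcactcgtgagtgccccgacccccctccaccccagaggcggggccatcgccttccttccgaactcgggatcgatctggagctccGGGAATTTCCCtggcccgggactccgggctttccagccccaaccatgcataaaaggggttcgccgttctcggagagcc

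CXCL3: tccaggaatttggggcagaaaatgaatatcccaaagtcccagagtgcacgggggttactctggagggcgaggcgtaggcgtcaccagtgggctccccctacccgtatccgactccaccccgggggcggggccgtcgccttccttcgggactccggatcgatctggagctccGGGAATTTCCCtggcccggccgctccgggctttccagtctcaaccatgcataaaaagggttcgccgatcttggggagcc

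CXCL5: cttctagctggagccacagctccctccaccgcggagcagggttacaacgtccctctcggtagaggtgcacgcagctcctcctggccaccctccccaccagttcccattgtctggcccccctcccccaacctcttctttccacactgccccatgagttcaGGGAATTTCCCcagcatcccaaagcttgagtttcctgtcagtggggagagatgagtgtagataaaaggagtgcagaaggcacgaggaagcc

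ICAM1: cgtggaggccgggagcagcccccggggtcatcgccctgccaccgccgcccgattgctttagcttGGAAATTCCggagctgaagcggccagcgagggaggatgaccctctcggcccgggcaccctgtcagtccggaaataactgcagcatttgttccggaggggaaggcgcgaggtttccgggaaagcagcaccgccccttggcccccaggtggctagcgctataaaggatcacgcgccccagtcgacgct

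In CXCL1, CXCL2, CXCL3 and CXCL5 the capitals are the same 11 letters, GGGAATTTCCC, made of 2 overlapping matches to the consensus, 1 on each strand. This run stood in 24 of 27305 promoters (0.0879%) and in 12 of those of tested genes. Of the genes that rose at least 2-fold, TNFRSF9 was the only other with the run. In CXCL8 the 9 letters began 91 bases before the start, and the consensus had no match in the window. The consensus matched 18 of the 56 promoters of genes at least 2-fold higher that the table held (32.1%), 4 of the 40 of genes at least 2-fold lower (10.0%) and 1202 of the 10485 of all tested genes (11.5%). Over all called genes the shares were 12.7% of the higher and 11.4% of the lower. The 9 letters, which overlap the consensus where both match, stood in 9 of the 56 promoters (16.1%), in 0 of the 40 and in 39 of the 10485 (0.372%). Of those 39 genes 15 rose, 2 fell and 22 were not called. The 9-letter piece was picked from genes that had risen, so its share among rises is a description, and a match does not show binding.

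**Figure D2:**
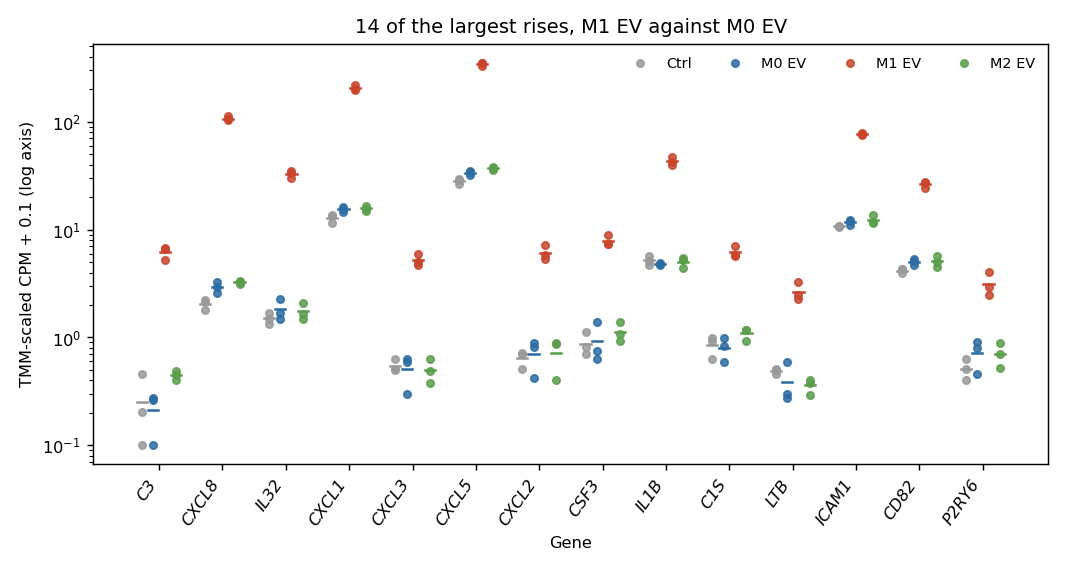
TMM-scaled CPM plus 0.1 on a log axis for the 14 largest rises of M1 EV over M0 EV (small RNA host genes such as MIR3142HG left out), 1 point per library and a line at each group mean, with Ctrl and M2 EV for reference. In each of the 14 genes the 3 M1 EV points lie above the 9 others, for example CXCL8 at 103.8 to 112 CPM against at most 3.18 CPM in M0 EV.

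Secreted cytokines of the interleukin and colony-stimulating families rose as well. IL32, an inflammatory cytokine, measured 2.20, 1.39 and 1.59 CPM with M0 EV and 34.9, 33.4 and 29.8 CPM with M1 EV, an 18.5-fold difference (log2 fold change 4.21 ± 0.12, adjusted p = 1.73e-26). IL1B, a cytokine that inflammasomes process, went from 4.72, 4.57 and 4.78 CPM to 41.8, 46.7 and 39.8 CPM (3.19 ± 0.093, adjusted p = 1.58e-26). IL6 went from 4.07, 3.78 and 3.01 CPM to 16.9, 13.9 and 14.3 CPM (2.04 ± 0.13, adjusted p = 4.53e-16). None of these groups of libraries overlapped. CSF3, the growth factor of neutrophil precursors, rose from 0.825 ± 0.409 to 7.75 ± 0.87 CPM (SD, n = 3), and LIF, an IL6 family member, from 33.8 ± 1.0 to 54.1 ± 3.4 CPM. IL1A, the neighbour of IL1B on chromosome 2, rose by 1.39 on the log2 scale, IL11 by 0.68 and CSF1, the macrophage growth factor, by 0.54. Of 25 genes of this list, 12 were tested, 8 rose (66.7%, against 12.5% of all genes) and none fell (median 0.68). IL7, CLCF1, IL16 and IL15 did not pass, at 0.63, -0.43, -0.51 and -0.13.

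Receptors for cytokines moved less. Of 31 receptor genes 21 were tested, with a median of 0.154. Among these 8 rose (38.1%) and 2 fell (9.52%), against 12.5% and 12.8% over all genes. IL6ST (gp130), the signalling chain shared by IL6, LIF and IL11, had means of 146 ± 7 and 220.2 ± 10.7 CPM (SD, n = 3) and rose by 0.60 ± 0.042 on the log2 scale (adjusted p = 1.26e-14). IL4R, OSMR and IL13RA1 rose by 0.41, 0.34 and 0.32, and IL7R by 1.12 from 1.396 CPM. IL6R, the ligand-binding chain for IL6, fell by 0.39 on the log2 scale and IL17RC by 0.20. IL1R1, the receptor of IL1A and IL1B, did not pass at -0.12.

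NF-kB subunits and their feedback inhibitors were called higher in 15 of 21 tested genes and lower in 1 (N4BP1, -0.14), against 12.5% and 12.8% over all genes, with a median of 0.54. NFKBIA encodes IkB-alpha, the inhibitor that NF-kB itself induces. It measured 29.1, 26.6 and 25.5 CPM with M0 EV and 62.8, 61.6 and 61.6 CPM with M1 EV (log2 fold change 1.19 ± 0.057, adjusted p = 2.26e-19). TNFAIP3 (A20), a ubiquitin-editing brake on the pathway, went from 4.72, 3.98 and 4.16 CPM to 13.3, 16.0 and 17.3 CPM (1.85 ± 0.12, adjusted p = 1.34e-15). Both were higher in every M1 EV library than in any M0 EV library. TNIP1, which works with A20, rose by 0.94, and the atypical IkB proteins NFKBIZ and BCL3 by 2.04 and 0.91. ZC3H12A, an RNase that destroys inflammatory mRNAs, rose by 1.92. Among the 5 subunits, RELB rose most (16.2 ± 1.3 to 53.2 ± 3.1 CPM, SD, n = 3; 1.71 ± 0.069), followed by NFKB2 (0.90), NFKB1 (0.54), REL (0.31) and RELA (0.21). Of the kinase subunits, CHUK rose by 0.28, while IKBKB (-0.015) and IKBKG (-0.035) did not pass.

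In the TNF family, with its receptors and adaptors, 11 of 23 tested genes rose (47.8%) and 3 fell (13.0%), with a median of 0.17. Over all genes the shares were 12.5% and 12.8%. LTB, the membrane-bound lymphotoxin subunit, rose by 3.06 from 0.288 ± 0.174 to 2.56 ± 0.51 CPM (SD, n = 3), and TNFRSF9 (4-1BB), a costimulatory receptor, by 2.25 to 6.68 ± 0.13 CPM. TRAF1, an adaptor, rose by 1.14 and the death receptor TNFRSF10B by 0.45. MAP3K14 encodes NIK, the kinase of the non-canonical NF-kB pathway. It measured 64.6, 66.4 and 69.1 CPM with M0 EV and 33.04, 38.7 and 38.4 CPM with M1 EV, so it was lower in every library (-0.86 ± 0.058, adjusted p = 7.22e-15). TNFRSF21 (death receptor 6) fell by 0.42 and TNFSF12 by 0.285. TNF itself had 0 counts with M0 EV and 4 with M1 EV.

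Inhibitors of apoptosis and the BCL2 family gave 7 rises (36.8%) and 3 falls (15.8%) among 19 tested genes (median 0.049). Over all genes the shares were 12.5% and 12.8%. BIRC3 (cIAP2), a ubiquitin ligase of the TNF receptor complex, measured 12.5, 12.5 and 14.1 CPM with M0 EV and 62.3, 53.6 and 66.1 CPM with M1 EV (log2 fold change 2.21 ± 0.078, adjusted p = 8.4e-24). Its close relative BIRC2 on the same chromosome rose by 0.50. The survival protein MCL1 rose by 0.31 and BCL2L1 (BCL-XL) fell by 0.23, and the pro-apoptotic BBC3 rose by 0.42. SOD2, the mitochondrial superoxide dismutase, went from 50.1, 49.8 and 51.1 CPM to 160.3, 158 and 166 CPM (1.68 ± 0.044, adjusted p = 5.63e-28). Of 27 tested genes of the antioxidant list 5 rose (18.5%), SOD2 included, and 6 fell (22.2%), with a median of -0.013. NQO1, a textbook NRF2 target, fell by 0.38, CAT (catalase) fell by 0.32 and FTH1, the ferritin heavy chain, rose by 0.26.

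Genes of both interferon lists were called higher more often than lower, whereas over all tested genes 12.5% were higher and 12.8% lower. Of 35 tested genes of the type I interferon list, 10 rose (28.6%) and 4 fell (11.4%), with a median of 0.064. IFIT1, an antiviral RNA-binding protein, was lower with M1 EV, at 6.40, 6.02 and 7.26 CPM against 13.6, 12.1 and 9.83 CPM (-0.86 ± 0.12, adjusted p = 6.94e-07). IFIT2 fell by 0.77, SAMD9L by 0.55 and SAMD9 by 0.22. OAS3, a sensor of double-stranded RNA, rose by 0.43, and OASL and XAF1 rose by 0.94 and 0.88 from 0.780 and 1.08 CPM. MX1 (-0.45), IFIT3 (-0.15) and ISG15 (0.11) did not pass. Of 30 tested genes of the interferon-gamma list, 17 rose (56.7%) and 1 fell (3.33%, RNF213 at -0.19), with a median of 0.29. C1S, ICAM1, CASP4 (0.60), an inflammatory caspase, and GBP1 (0.57), a GTPase against intracellular microbes, had its smallest adjusted p-values. ICAM1 is also a known NF-kB target, and C1S and C1R stand in the complement list as well. IRF1, the first transcription factor induced by interferon-gamma, did not pass (58.8 against 62.0 CPM; 0.07, adjusted p = 0.293), nor did CD274 (PD-L1; 0.23, adjusted p = 0.318).

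Antigen presentation by HLA class I was called higher in 17 of 22 genes (77.3%, against 12.5% of all genes) and lower in none (median 0.34). HLA-B measured 44.9, 35.4 and 43.3 CPM with M0 EV and 89.0, 81.1 and 78.1 CPM with M1 EV (log2 fold change 0.995 ± 0.063, adjusted p = 9.49e-16). The groups did not overlap, though reads may be shared among HLA genes. TAP1 and TAP2, the peptide transporter, rose by 0.63 and 0.36, the immunoproteasome subunit PSMB9 by 0.435, the proteasome activator PSME2 by 0.43, and B2M, the light chain of class I, by 0.26. NLRC5, the transactivator of these genes, rose by 0.60. CALR (-0.0046) and PDIA3 (0.073), chaperones of the loading complex, did not pass.

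Complement genes included the highest fold change. C3, the central component, had 4 counts over the 3 M0 EV libraries and 186 over the 3 M1 EV libraries. It measured 0.163, 0 and 0.177 CPM with M0 EV, where 3 counts in replicate 2 would be 0.298 CPM, and 6.61, 5.11 and 6.47 CPM with M1 EV (log2 fold change 5.54 ± 0.35, adjusted p = 1.16e-15). The size of this ratio rests on those few M0 EV counts. C1S and C1R, proteases that start the classical pathway, rose by 3.07 and 0.93, and CFB, the protease of the alternative pathway, by 1.96. CLU (clusterin), an inhibitor of the terminal complex, fell by 0.75 and C5 by 0.62. In all, 4 of 12 tested complement genes (median -0.033) rose (33.3%) and 2 fell (16.7%), against 12.5% and 12.8% over all genes.

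**Figure D3:**
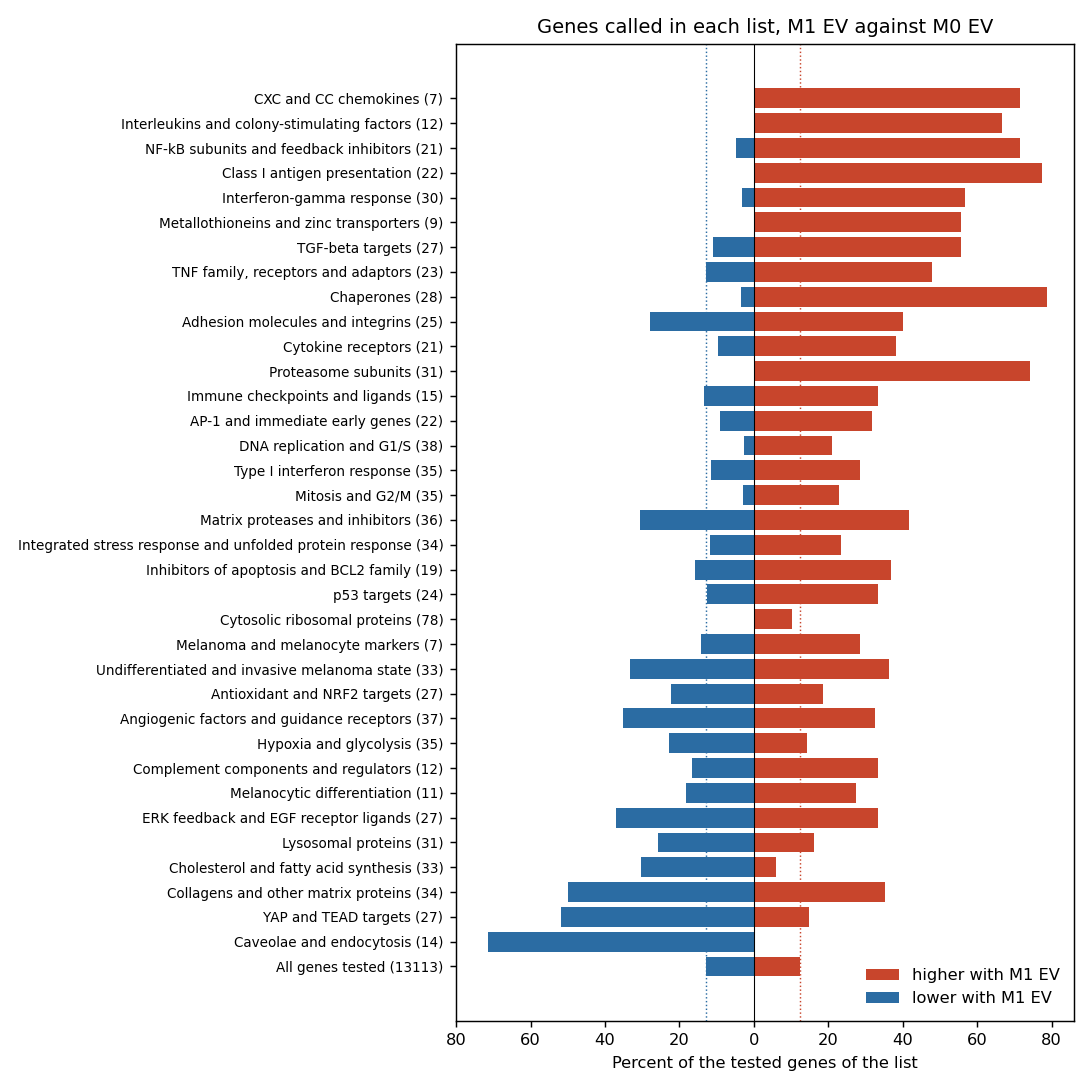
Percent of the tested genes of each list called higher (red, right) or lower (blue, left) with M1 EV against M0 EV, with the number tested in brackets, and dotted lines at the shares over all 13113 genes (12.5% and 12.8%). Chaperones (22 of 28 higher) and class I presentation (17 of 22 higher) reach furthest to the right, and caveolae (10 of 14 lower) to the left.

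Surface adhesion and matrix genes changed in both directions. ICAM1, which leukocyte integrins bind, measured 10.9, 12.1 and 11.9 CPM with M0 EV and 77.9, 77.4 and 74.5 CPM with M1 EV, 6.6-fold more (log2 fold change 2.72 ± 0.063, adjusted p = 6.92e-30). VCAM1, often induced beside it, had no count in either group, which allows up to 0.0892 CPM with M0 EV and 0.0973 CPM with M1 EV by counting error. Of 25 tested adhesion genes and integrins (median 0.158) 10 rose (40.0%) and 7 fell (28.0%), against 12.5% and 12.8% over all genes. ITGA2, ITGA5 and ITGAV, alpha chains for collagen, fibronectin and vitronectin, rose by 0.57, 0.46 and 0.42. ITGA10 and ITGB4 fell by 0.71 and 0.63. CD82, a tetraspanin known as a metastasis suppressor, measured 5.21, 4.97 and 4.61 CPM with M0 EV and 27.5, 27 and 24.3 CPM with M1 EV (2.41 ± 0.098, adjusted p = 8.76e-22). P2RY6, a receptor for extracellular UDP, rose by 2.28.

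Proteases of the plasminogen system rose on both the enzyme and the inhibitor side. PLAU (urokinase) measured 393, 380.2 and 375 CPM with M0 EV and 686, 702 and 681 CPM with M1 EV (log2 fold change 0.85 ± 0.031, adjusted p = 3.97e-23). Its receptor PLAUR rose by 0.43, and the inhibitors SERPINE2 and SERPINB2 by 0.64 and 1.68. Among metalloproteases, MMP14, the membrane-bound collagenase, rose from 463 ± 5 to 669.8 ± 21.6 CPM (SD, n = 3). MMP1 rose by 1.29 to 4.17 ± 0.73 CPM. MMP3 rose by 1.21 to 1.47 ± 0.43 CPM, a call lost without M0 EV replicate 1 (adjusted p = 0.0901) and without M1 EV replicate 1 (0.0853). The cysteine proteases CTSL and CTSS rose by 0.47 and 2.21. CPA4, a secreted carboxypeptidase, fell by 1.45 and MMP11 by 0.74. Of 36 tested proteases and inhibitors (median 0.056) 15 rose (41.7%) and 11 fell (30.6%), against 12.5% and 12.8% over all genes.

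Matrix genes were called in 29 of 34 tested, 12 higher and 17 lower, with a median of -0.129. The chains of collagen VI, a microfibrillar collagen around cells, rose together: COL6A2 measured 1127, 1084 and 1156 CPM with M0 EV and 1851, 1859 and 1836 CPM with M1 EV (log2 fold change 0.72 ± 0.031, adjusted p = 3.74e-21), COL6A1 rose by 0.58 and COL6A3 by 0.65. THBS1 (thrombospondin 1) rose by 0.66 and COL16A1 by 1.05. COL8A1 fell from 47.6 ± 1.4 to 24.9 ± 1.9 CPM (SD, n = 3; -0.94), and LOXL1, a collagen crosslinker, by 1.06. Of the laminins, LAMA5, LAMA4, LAMB2, LAMB1 and LAMC1 fell, by 0.68 to 0.16 on the log2 scale, and LAMB3 rose by 0.89. FN1 (fibronectin) fell by 0.27.

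Secreted and guidance factors also split. ESM1 (endocan), an endothelial proteoglycan, measured 29.2, 29.2 and 25.3 CPM with M0 EV and 91.9, 83.0 and 92.4 CPM with M1 EV (log2 fold change 1.67 ± 0.057, adjusted p = 3.25e-24). SLIT2, a repellent guidance cue, and NRP2, a co-receptor for semaphorins and VEGF-C, rose by 0.77 and 0.76. VEGFC and VEGFA rose by 0.48 and 0.29. NTN4 (netrin 4) fell by 0.90, from 156 ± 3 to 83.8 ± 3.7 CPM (SD, n = 3). Receptors for netrins fell too: UNC5B measured 13.1, 13.5 and 16.7 CPM with M0 EV and 6.61, 6.93 and 7.65 CPM with M1 EV (-1.03 ± 0.11, adjusted p = 2.04e-09), and DCC fell by 1.38, from 4.70 ± 0.54 to 1.79 ± 0.33 CPM. Of 37 tested angiogenic and guidance genes (median -0.016) 12 rose (32.4%) and 13 fell (35.1%), against 12.5% and 12.8% over all genes. Among EGF receptor ligands EREG, HBEGF and EPGN rose (0.92, 0.71 and 0.82), while of the ERK feedback genes SPRY1, DUSP4 and SPRY2 fell (by 0.68, 0.48 and 0.47) and DUSP6 did not pass (0.021). That list as a whole had 9 rises (33.3%) and 10 falls (37.0%) in 27.

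TGF-beta targets (median 0.187) were called higher in 15 of 27 tested genes (55.6%) and lower in 3 (11.1%), against 12.5% and 12.8% over all genes. CDKN1A (p21), a cyclin-dependent kinase inhibitor also driven by p53, rose by 1.07 from 8.80 ± 0.26 to 18.5 ± 0.9 CPM (SD, n = 3). JUNB, an AP-1 subunit, rose by 1.05 and PMEPA1, a feedback inhibitor of TGF-beta signalling, by 1.06. INHBA and SNAI2 rose by 0.81 and 0.42, whereas CDKN2B fell by 0.50 and CCN2 did not pass (-0.088). Of 22 tested AP-1 and immediate early genes 7 rose (31.8%) and 2 fell (9.09%). IER3, a stress-induced survival gene, rose from 65.5 ± 1.3 to 114 ± 6 CPM. JUN (-0.059) and FOSL1 (-0.082) did not pass. Of 24 tested p53 targets 8 rose (33.3%) and 3 fell (12.5%), and TP53INP1 fell by 0.59.

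Fewer falls than rises reached 4-fold (2 against 22), whereas between 1.5-fold and 2-fold 158 genes fell and 102 rose. CPA4, named above, measured 20.1, 17.5 and 19.0 CPM with M0 EV and 6.40, 6.93 and 7.45 CPM with M1 EV (log2 fold change -1.45 ± 0.10, adjusted p = 2.07e-14). TENM4, a teneurin of neuronal contacts, fell by 2.04 from 1.09 ± 0.27 CPM (SD, n = 3). LRRN4CL, a membrane protein, fell by 1.52, MYO5B, a myosin of vesicle recycling, by 1.48, NANOS1, a translational repressor, by 1.4, PGM5 by 1.35 and SHROOM2 by 1.29. PADI4, an enzyme that turns arginine into citrulline, fell by 1.35 from 1.01 ± 0.13 CPM. Its call was lost without M0 EV replicate 1 (adjusted p = 0.0582) and without M1 EV replicate 2 (0.132).

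**Figure D4:**
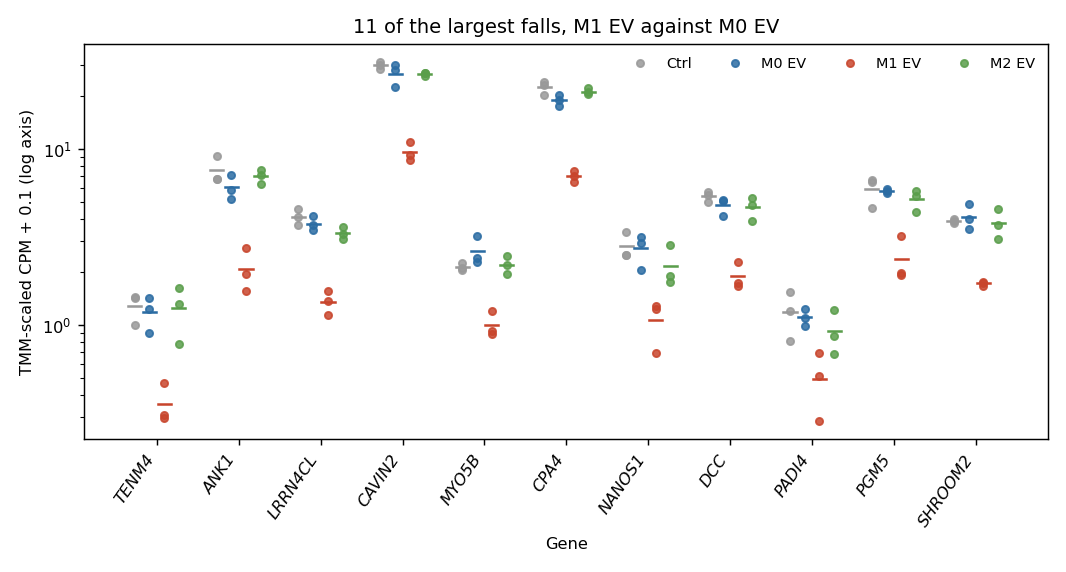
TMM-scaled CPM plus 0.1 on a log axis for 11 of the 12 largest falls of M1 EV against M0 EV. Each library has 1 point, with a line at each group mean. The falls are those of called genes of at least 1 CPM in the higher group whose groups did not overlap. Unnamed loci, antisense and divergent transcripts were left out, as was IGFBP5 (-2.06, the largest called fall), which averaged 0.963 CPM with M0 EV. In each of the 11 genes the 3 M1 EV points lie below the 3 M0 EV points, as with CPA4 at 6.40 to 7.45 CPM against 17.5 to 20.1 CPM.

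Caveolae, small pits of the plasma membrane built from caveolins and cavins, were described by a list that also holds endocytic genes. It was called lower in 10 of 14 tested genes (71.4%, against 12.8% of all genes) and higher in none, with a median of -0.31. CAV1, the main caveolin, measured 683, 663 and 665 CPM with M0 EV and 431, 423 and 429 CPM with M1 EV (log2 fold change -0.65 ± 0.030, adjusted p = 5.99e-20). CAVIN2, which shapes the pit, measured 30.0, 22.5 and 28.0 CPM with M0 EV and 10.9, 9.12 and 8.53 CPM with M1 EV (-1.51 ± 0.10, adjusted p = 3.5e-15). The remaining coat genes fell less: CAVIN3 by 0.36, CAVIN1 by 0.30, CAV2 by 0.26 and EHD2, the ATPase at the neck, by 0.31. FLOT1 and FLOT2, scaffold proteins of other membrane domains, fell by 0.59 and 0.30, and ANK1, an ankyrin of the membrane skeleton, by 1.58. The clathrin chains CLTC (-0.052) and CLTA (0.042) did not pass.

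YAP and TEAD targets, genes of a growth-control and mechanosensing pathway, fell in 14 of 27 tested (51.9%) and rose in 4 (14.8%), with a median of -0.155. MYOF (myoferlin), a membrane-repair protein, measured 1001, 1043 and 1058 CPM with M0 EV and 701, 715 and 698 CPM with M1 EV (log2 fold change -0.55 ± 0.030, adjusted p = 6.39e-18). AXL, a receptor tyrosine kinase also used as a marker of invasive melanoma, measured 1308, 1335 and 1338 CPM with M0 EV and 1015, 1070 and 1029 CPM with M1 EV (-0.35 ± 0.028, adjusted p = 3.8e-13). AMOTL1 and ASAP1 fell by 0.33 and 0.29. Among well-known targets, CCN2 did not pass (-0.088) and CCN1 rose by 0.14. The wider list of undifferentiated and invasive melanoma genes was divided, 12 higher (36.4%) and 11 lower (33.3%) of 33 (median -0.0071). Of 11 tested melanocytic genes 3 rose (27.3%) and 2 fell (18.2%), against 12.5% and 12.8% over all genes. MC1R, the melanocortin receptor, rose by 0.32 and GPNMB, a melanosomal glycoprotein, fell by 0.49. The calls of RAB27A, SLC24A5 and PAX3 did not hold in every alternative, and that of PAX3 was lost without M0 EV replicate 1 (edgeR adjusted p = 0.138).

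By change in level rather than fold, the largest losses were AHNAK, EEF1A1, PLEC, LMNA, SFRP1, DYNC1H1, ENO1 and MYOF. SFRP1, a secreted antagonist of Wnt ligands, measured 968, 999 and 977 CPM with M0 EV and 512, 511 and 505 CPM with M1 EV (log2 fold change -0.95 ± 0.029, adjusted p = 7e-26), and LMNA (lamin A/C) fell by 0.45. AHNAK, a giant scaffold protein, measured 1682, 2255 and 2389 CPM with M0 EV and 1206, 1325 and 1279 CPM with M1 EV (-0.73 ± 0.066, adjusted p = 2.38e-11). AHNAK, PLEC and DYNC1H1 have long transcripts, and in all 3 M0 EV replicate 1 was the lowest of its group. Their fold changes are given only with that library. Of 679 genes with transcripts over 8000 bases, 28.3% were called lower and 8.1% higher, and without M0 EV replicate 1 36.5% were called lower. Of 614 with up to 1000 bases, 7.17% were called lower and 14.5% higher. The part of length in these falls was not tested. Against Ctrl instead of M0 EV, AHNAK and PLEC were also called lower (-0.47 and -0.30), and DYNC1H1 was not (-0.13, adjusted p = 0.0845). EEF1A1 and ENO1 fell by less than 0.1 on the log2 scale, and their calls were lost without M0 EV replicate 1 (adjusted p = 0.09) and without M1 EV replicate 3 (0.0973) respectively.

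Chaperone and proteasome genes rose by small amounts. Of 28 tested chaperones 22 rose (78.6%, against 12.5% of all genes) and 1, BAG3, fell (median 0.166). HSP90AB1 measured 1364, 1340 and 1334 CPM with M0 EV and 1640, 1568 and 1610 CPM with M1 EV (log2 fold change 0.26 ± 0.028, adjusted p = 3.48e-09). HSP90AA1, HSPA8 and the mitochondrial chaperonin HSPD1 rose by 0.13, 0.135 and 0.29, and all 7 CCT subunits of the cytosolic chaperonin that were tested rose beside TCP1. Of 31 proteasome subunits 23 rose (74.2%) and none fell, and all 31 log2 fold changes lay between 0.021 and 0.32 (median 0.142). PSMD2, a subunit of the regulatory particle, was highest (829 ± 10 to 1036 ± 16 CPM, SD, n = 3). Of 9 tested metallothioneins and zinc transporters 5 rose (55.6%) and none fell. MT2A, a metal-binding protein, rose from 432 ± 13 to 627 ± 40 CPM, and the importer SLC39A14 by 0.35. TFRC, the transferrin receptor, rose from 598.5 ± 14.9 to 850.2 ± 14.7 CPM (0.51).

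Ribosomal, cell cycle, metabolic and lysosomal genes were mostly not called, as held for all tested genes (12.5% higher and 12.8% lower). Falls in the cholesterol, hypoxia and lysosomal lists, and rises in the cell cycle lists, lay above those shares. Of 78 ribosomal protein genes 8 rose (10.3%, against 12.5% of all genes) and none fell, and the calls of RPLP2, RPL14 and RPL18 were lost when single libraries were left out. MKI67, a marker of cycling cells, measured 442, 529 and 545 CPM with M0 EV and 469, 527 and 509 CPM with M1 EV, groups that overlapped (log2 fold change -0.0084 ± 0.051, adjusted p = 0.927). Of 38 replication genes 8 rose (21.1%) and 1 fell (2.63%), and of 35 mitotic genes 8 rose (22.9%) and 1 fell (2.86%). All these rises stayed under 0.4 on the log2 scale. Cholesterol and fatty acid synthesis gave 2 rises (6.06%) and 10 falls (30.3%) in 33 (median -0.065), with SCD, the stearoyl-CoA desaturase, down by 0.19. Hypoxia and glycolysis gave 5 rises (14.3%) and 8 falls (22.9%) in 35. ADM, a hypoxia-induced vasodilator peptide, fell by 0.44. Of 34 stress-response genes 8 rose (23.5%) and 4 fell (11.8%). CEBPB, a transcription factor of acute inflammation, rose by 0.66 and HSPA5 by 0.19, and ATF4 did not pass (-0.049). Of 31 lysosomal genes 5 rose (16.1%) and 8 fell (25.8%), among them NPC1 (0.345) and NPC2, which fell by 0.39. Of 15 tested checkpoint genes 5 rose (33.3%) and 2 fell (13.3%). PVR, the ligand of TIGIT, rose by 0.29 and NT5E (CD73) fell by 0.16. MT-RNR1, the mitochondrial 12S ribosomal RNA, was not called (-0.11, adjusted p = 0.0595), and MT-RNR2 fell by 0.15.

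The same M1 EV libraries can be set against the other groups, and these comparisons share them with the one above. M1 EV against Ctrl called 3683 genes (28.1%) and M1 EV against M2 EV 3229 (24.6%). For CXCL8 the log2 fold changes against M0 EV, Ctrl and M2 EV were 5.24, 5.76 and 5.08, for ICAM1 2.72, 2.85 and 2.64, for BIRC3 2.21, 2.28 and 2.10, for COL6A2 0.72, 0.79 and 0.66, and for CAV1 -0.65, -0.69 and -0.605. Whether the choice of M0 EV or Ctrl as reference mattered is tested by M0 EV against Ctrl. That comparison called 2 genes of 13113 (0.0153%) by edgeR, 1 in each direction (0.00763% each), and 0 by DESeq2, with 665 at an unadjusted p below 0.05 (5.07%). Those called were UNC5B, lower with M0 EV (20.3 CPM in Ctrl and 14.5 with M0 EV; -0.49 ± 0.086, adjusted p = 0.0199), and MT-RNR1, higher (0.235). The call of UNC5B between M0 EV and Ctrl was lost by DESeq2 and by edgeR without Ctrl replicate 3 or without M0 EV replicate 2. With M1 EV, UNC5B averaged 7.06 CPM. CXCL8 (0.52 ± 0.21, adjusted p = 0.908) and CXCL5 (0.25 ± 0.066, adjusted p = 0.28) were not called between M0 EV and Ctrl. M0 EV replicate 1 bore on this count: without it 85 genes were called. M0 EV against M2 EV called 0 genes by edgeR and 0 by DESeq2 (447 at an unadjusted p below 0.05), and 36 without M0 EV replicate 1.

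**Figure D5:**
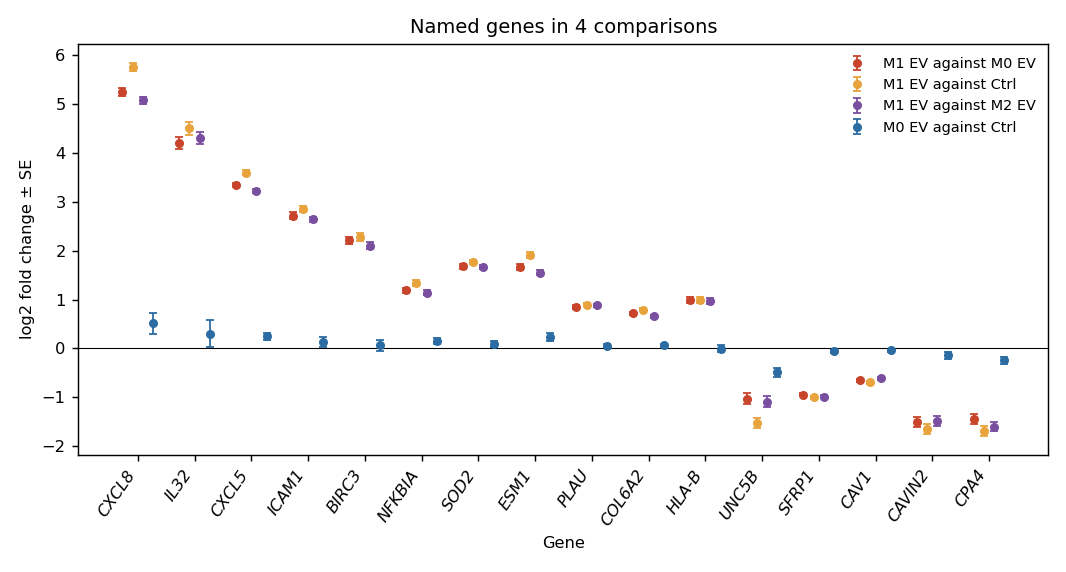
Log2 fold change ± SE of 16 named genes for M1 EV against M0 EV, M1 EV against Ctrl and M1 EV against M2 EV, which share the M1 EV libraries, and for M0 EV against Ctrl. The first 3 have the same sign in each gene and are furthest apart in CXCL8 (5.08 to 5.76) and UNC5B (-1.52 to -1.03), while M0 EV against Ctrl stays between -0.49 (UNC5B) and 0.52 (CXCL8).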

How the data were processed

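RNA of 12 MV3 cultures was sequenced from poly(A) directional libraries, per the labels' protocols. STAR (2.6.1b), HOMER (4.10) and hg38 appear in the submitters' processing notes, with no roles stated. The authors deposited what were taken here to be expected counts per RefSeq transcript, in multiples of 0.5 and with no normalization. This reading rests on the multiples of 0.5 (51.3% of the values above 0 were not whole). Other ways of counting that give such values were not tested. The deposited values were rounded here to whole counts. Of 70507 transcripts, 69830 were named from RefSeq and 327 from GENCODE 29, and 350 stayed unnamed and out of the tests. Per gene, the transcript with the highest sum over the 12 libraries was used (12543 genes had more than 1), so other isoforms do not enter a gene's value. For some genes, among them CXCL1, CSF3, IL6ST and ITGA2, that transcript is of RefSeq's non-coding class. Of the count columns, that of M0 EV replicate 1 is headed MV instead of MV3.

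Libraries were grouped by their labels. Genes were filtered on low counts and tested with edgeR 4.0.16 (R 4.3.3), as quasi-likelihood fits over all 12 libraries with TMM scaling, and called at a Benjamini-Hochberg adjusted p below 0.05. The alternatives were DESeq2 1.42.0, limma-voom (limma 3.58.1), 2 other scalings, other filters, only the 6 libraries, another transcript per gene, a replicate block and leaving out each library; summing M0 EV replicates 2 and 3 was added after seeing the data. On simulated counts for M1 EV against M0 EV (13010 genes, 50 changed per size), 68% of 1.25-fold, 82% of 1.5-fold, 96% of 2-fold and 100% of 4-fold changes were recovered, and 13 of 186 calls were false. Changed genes were drawn only above a minimum mean count and were far fewer than the 3321 called in the data. The rates therefore need not hold for the data, least of all for genes with few counts. Upper limits given for a count of 0 (3 counts) cover counting error only.

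The members and the 37 gene lists were chosen with earlier results of these data known. Named genes were the 14 largest rises and 12 largest falls among called genes of at least 1 CPM in the higher group with groups that did not overlap, leaving out unnamed loci, small RNA hosts, read-through, antisense and divergent transcripts (MIR3142HG, SH3TC2-DT, LOC101928126 and LRP1-AS otherwise met the rule); the 8 largest gains and losses in CPM, up to 4 genes per list with the smallest adjusted p, and 25 fixed genes. Further list members were named after their values were seen. A few of the genes the rule names are not reported here.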

Additional observations from a re-analysis of the deposited data

How the results depend on the processing

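Between M1 EV and M0 EV, 2224 (DESeq2) to 3417 genes (replicate block) were called, against 3321, and 2647 to 3118 when 1 library was left out. Without M0 EV replicate 1, 1580 genes were called higher and 1538 lower, and at least 2-fold changes numbered 73 up and 55 down. DESeq2 called 1072 genes lower, against 1683. The cause was not tested. Of 163 named genes 161 were called; 146 of these kept their call in all 16 alternatives, 2 (LTB and TENM4) kept it wherever they had a value, which DESeq2 and the filter on mean CPM did not give, nor for TENM4 the 6 libraries alone, and 13 lost it in at least 1. None reversed where a value was given. Most of these genes were picked for large or strongly called changes in the same data, so their stability does not speak for calls in general. Deviations of same-numbered M0 EV and M1 EV libraries correlated across genes at 0.0904, 0.00907 and -0.0127, and replicate 1 alone correlated best with its own number. With 3 libraries per group, these values cannot tell whether same-numbered replicates shared a batch. With the replicate block, M0 EV against Ctrl called 20 genes and M0 EV against M2 EV 1. For M0 EV against Ctrl, DESeq2 called 0 genes, leaving out 1 library gave 0 to 85, and summing M0 EV replicates 2 and 3 gave 1. For M0 EV against M2 EV, leaving out 1 library gave 0 to 36. The highest counts, 85 and 36, both came without M0 EV replicate 1. Rises from a few counts, such as C3, have the least certain size.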
